A study of Homo sapiens with 12 samples.

Results

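The genes described here are 9 members of the NRF2 pathway, namely *NFE2L2*, *KEAP1*, *GCLC*, *GCLM*, *NQO1*, *HMOX1*, *TXNRD1*, *SRXN1* and *OSGIN1*. They were picked by gene symbol, and each symbol matched 1 row of the 60664 genes in the deposited table. RNA-seq was performed on MDA-MB-231 cells, an established human breast cancer line of the triple-negative type. There were 4 libraries of wildtype (WT) cells in normoxia without treatment, 4 of WT cells exposed to hypoxia (1% O2) for 24 hr, and 4 of untreated *CCAR2*-/- (KO) cells in normoxia. *CCAR2* encodes DBC1, and the KO line was made with a lentiviral CRISPR/Cas9 vector and a single guide. Whether the KO cells were 1 clone or a pool is not given in the sources used here, so effects of the deletion and of a line grown from few cells cannot be told apart. No KO library came from hypoxia, and the WT normoxia libraries are the controls of both comparisons with normoxia.

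NRF2, the product of *NFE2L2*, is a transcription factor that activates genes against oxidative and electrophilic stress. In unstressed cells KEAP1 binds NRF2 and, with the ligase CUL3, marks it for degradation, and modification of KEAP1 cysteines by electrophiles lets NRF2 accumulate. NRF2 then pairs with small MAF proteins on antioxidant response elements near its targets. This control acts mostly on the protein, so the RNA of *NFE2L2* and *KEAP1* does not measure NRF2 activity. The targets cover glutathione synthesis (*GCLC* and *GCLM*, the catalytic and modifier subunits of glutamate-cysteine ligase), quinone reduction (*NQO1*), heme breakdown (*HMOX1*), repair of oxidized thioredoxin (*TXNRD1*) and of overoxidized peroxiredoxins (*SRXN1*), and *OSGIN1*, an oxidative stress-induced growth inhibitor.

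The values of a library summed to between 153904088 and 213743693 in WT normoxia, between 76384973 and 195621872 in hypoxia and between 68599412 and 152328450 in KO cells, and 3 libraries (hypoxia replicates 1 and 2 and KO replicate 2) were well below the rest. *CCAR2* RNA was between 54.6 and 60.7 CPM (a count as a share of its library, with edgeR's TMM factors applied) in the KO libraries and between 148 and 152 in WT normoxia, a log2 fold change of -1.34 (SE 0.04, edgeR adjusted p = 2.1e-09), and 0.02 in hypoxia, which was not called. The RNA left in KO cells does not measure the protein. The paper reports that knockouts were checked by sequencing the edited regions, and loss of the protein by Western blotting. The hypoxia markers *CA9*, *VEGFA*, *NDRG1*, *ADM* and *PDK1* were higher in hypoxia in 5 of 5 cases. The mesenchymal genes of the line (*VIM*, *CD44*, *AXL*, *ZEB1* and *FN1*) were present in every library, with summed levels of 7363 to 7653 CPM in WT normoxia, 6666 to 7018 in hypoxia and 7665 to 8222 in KO cells. *VIM* made up most of these sums, while *FN1* was called higher in KO cells (log2 fold change 1.56, SE 0.07, edgeR adjusted p = 3.1e-08) and *ZEB1* lower in hypoxia (-0.52, SE 0.08, edgeR adjusted p = 0.00122). Of the luminal and HER2 genes, *ESR1* and *PGR* were at or below 0.469 and 0.173 CPM in every library, whereas the group means were 0.973 to 1.37 CPM for *FOXA1*, 5.06 to 7.02 for *GATA3* and 91.5 to 99.7 for *ERBB2*.

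All 9 genes are protein coding, and positions are those of GENCODE 29 on GRCh38, matched by the gene identifiers in the table. *NFE2L2* (ENSG00000116044) is at chr2:177227595-177392697 and *KEAP1* (ENSG00000079999) at chr19:10486120-10503741, both on the minus strand. *GCLC* (ENSG00000001084, chr6:53497341-53616970), *GCLM* (ENSG00000023909, chr1:93885205-93909456), *NQO1* (ENSG00000181019, chr16:69706996-69726951) and *SRXN1* (ENSG00000271303, chr20:646615-653370) also lie on the minus strand. *HMOX1* (ENSG00000100292, chr22:35380361-35394214), *TXNRD1* (ENSG00000198431, chr12:104215779-104350305) and *OSGIN1* (ENSG00000140961, chr16:83948282-83966332) lie on the plus strand. Of the exon bases of *SRXN1*, 85.0% are shared with AL121758.1 on the same strand, a gene at 0.0150 CPM in the mean of the 12 libraries, and 17.6% of those of *NFE2L2* are shared with AC019080.1 at 2.34 CPM. *OSGIN1* shares 13.9% with AC009119.2 on the same strand, a gene without a deposited value. *NQO1* shares 17.7% with AC092115.2 on the opposite strand, at 0 CPM. *NFE2L2* also shares 54 exon bases, or 0.903%, with *AGPS* on the opposite strand, a gene at 88.2 CPM. The split of reads between these overlapping genes is uncertain, and whether strand was used in counting is not given in the sources used here.

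Promoter sequences are shown because *GCLM*, *NQO1* and *TXNRD1* moved together across the 3 conditions while the libraries of *KEAP1* overlapped between them, and all 4 genes hold letters of the NRF2 motif near a start site. They were chosen with their values and matches known. The sequences are RefSeq's on GRCh38.p14, which had 11 start sites for 8 of the 9 genes. Each stretch runs 5′ to 3′ in the direction of the gene, from 150 bases before to 10 bases after a start, and capitals mark matches on either strand to TGACNNNGC or TGAGNNNGC, the 2 spellings of the antioxidant response element core. A match on the opposite strand is seen in the printed strand as its reverse complement. The stretches are chr1:93909421-93909580 (minus strand) for *GCLM*, chr16:69726551-69726710 (minus) for *NQO1*, chr12:104215629-104215788 and chr12:104286882-104287041 (plus) for the start sites of *TXNRD1*, and chr19:10502762-10502921 (minus) for the second start site of *KEAP1*.
GCLM: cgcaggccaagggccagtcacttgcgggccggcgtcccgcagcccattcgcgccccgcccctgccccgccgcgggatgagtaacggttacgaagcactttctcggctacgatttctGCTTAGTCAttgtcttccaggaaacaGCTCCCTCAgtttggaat
NQO1: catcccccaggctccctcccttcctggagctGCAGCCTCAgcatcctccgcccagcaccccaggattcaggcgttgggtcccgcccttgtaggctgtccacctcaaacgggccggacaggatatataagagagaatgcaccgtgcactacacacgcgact
TXNRD1 start 1: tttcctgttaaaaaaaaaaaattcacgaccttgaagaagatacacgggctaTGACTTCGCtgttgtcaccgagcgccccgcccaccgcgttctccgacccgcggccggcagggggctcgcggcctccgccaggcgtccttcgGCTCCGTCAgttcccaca
TXNRD1 start 2: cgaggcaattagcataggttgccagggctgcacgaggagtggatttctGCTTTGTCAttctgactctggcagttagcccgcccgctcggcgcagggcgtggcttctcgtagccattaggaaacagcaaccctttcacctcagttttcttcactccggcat
KEAP1 start 2: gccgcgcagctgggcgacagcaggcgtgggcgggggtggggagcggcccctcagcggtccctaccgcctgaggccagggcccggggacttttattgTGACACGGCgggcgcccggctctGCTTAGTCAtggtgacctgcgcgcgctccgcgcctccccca

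The promoters of *GCLM* and *KEAP1* held the same 9 letters, TGACTAAGC, on the opposite strand and at nearly the same place, beginning 34 and 31 bases before the start. *KEAP1* held a further match, TGACACGGC, 54 bases before its start. *TXNRD1* had TGACTTCGC and TGACGGAGC at the first start site and TGACAAAGC at the second. *NQO1* held only the other spelling in this stretch, as TGAGGCTGC. *GCLC*, which also had 3 separate levels, held no match to either spelling in its window, and *OSGIN1*, whose libraries overlapped, held TGAGTCAGC 99 bases before its start. Over windows of 300 bases (250 before to 50 after a start), TGACNNNGC was found in 4 of the 11 windows of these genes, in *GCLM*, *KEAP1* and *TXNRD1*, and in 13.3% of all 35116 windows. TGAGNNNGC was found in 6 of 11 and in 18.3% of all windows. The hypoxia response element core was found as ACGTG in 0 of 11 windows (21.4% of all) and as GCGTG in 9 of 11 (36.5% of all), both strands searched. The GC content of the 11 windows ran from 53.7% to 80.0%, and the shares of all windows were not matched for it. A match is a description of these letters and not a measured binding site, and elements farther upstream lie outside these windows.

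Levels of different genes were compared as CPM per kilobase of exon. The length joined the exons of all annotated transcripts, such as 8646 bases for *GCLC* and 5979 for *NFE2L2*. It can exceed that of the transcripts expressed, which were not measured, so the order is approximate. In WT normoxia the order was *NQO1* (65.0 CPM per kilobase), *TXNRD1* (54.4), *SRXN1* (36.3), *KEAP1* (32.4), *GCLM* (14.1), *NFE2L2* (10.8), *OSGIN1* (4.28), *HMOX1* (4.11) and *GCLC* (2.98). The libraries of *OSGIN1* and *HMOX1* overlapped in this order and those of the other neighbours did not, which leaves the error in length aside. In hypoxia *NQO1* was at 36.8 CPM per kilobase, behind *TXNRD1* at 41.4, with libraries that overlapped both *TXNRD1* and *SRXN1* (33.1). *GCLM* at 8.77 likewise came to overlap *NFE2L2* at 7.85. In KO cells *NQO1* was at 87.6 and *TXNRD1* at 61.6 CPM per kilobase, and *GCLC* at 4.04 overlapped *OSGIN1* at 4.07 and *HMOX1* at 4.22.

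To see how the pathway responded to hypoxia, WT hypoxia was compared with WT normoxia. In edgeR 0 of the 9 genes were higher in hypoxia, also at an unadjusted p under 0.05 and by the call rule in DESeq2 and limma-voom, and 5 fell at an adjusted p under 0.05, namely *NQO1*, *GCLM*, *NFE2L2*, *TXNRD1* and *GCLC*. Genes were called when the log2 fold change was also at least 0.5 in size, and *GCLM* and *NQO1* were called lower. Of 21776 genes tested, 1.43% were called lower and 5.83% higher, and 12% were lower and 11.6% higher by the adjusted p alone. The median log2 fold change was -0.23 over the 9 genes and 0.01 over all genes tested.

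*NQO1*, which reduces quinones with NADPH, showed the largest fall of the 9. Its level was 209, 226, 216 and 195 CPM in normoxia and 110.0, 137, 114 and 119 CPM in hypoxia. Every hypoxia library was below every normoxia library, and the log2 fold change was -0.79 (SE 0.07, adjusted p = 6.6e-05 in edgeR's quasi-likelihood test), or a 95% interval of -0.95 to -0.63.

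The subunits of glutamate-cysteine ligase, the first and limiting enzyme of glutathione synthesis, fell to different extents. *GCLM* was at 84.2, 75.9, 74.4 and 72.0 CPM in normoxia and at 47.0, 51.8, 48.8 and 42.6 CPM in hypoxia, a log2 fold change of -0.66 (SE 0.07, edgeR adjusted p = 1.6e-04). *GCLC* was at 27.4, 26.0, 25.4 and 24.1 CPM in normoxia and at 23.1, 20.2, 21.8 and 20.8 CPM in hypoxia, a log2 fold change of -0.23 (SE 0.06, edgeR adjusted p = 0.0180). Neither gene's libraries overlapped between the conditions, but the fall of *GCLC* did not reach the fold limit. Its adjusted p was 0.0515, 0.0544 or 0.0651 without WT normoxia replicate 1, WT normoxia replicate 2 or WT hypoxia replicate 4, and 0.0525 with upper-quartile factors. The log2 ratio of *GCLC* to *GCLM* counts, which does not depend on library size, was -1.57 ± 0.03 in normoxia and -1.14 ± 0.15 in hypoxia (SD, n = 4), higher by 0.43 with no overlap. The two-sided exact permutation p was 0.0286, the smallest that 4 against 4 libraries allow. After Benjamini-Hochberg adjustment over 6 tests of ratios it was 0.0571 and did not pass. That adjusted value depended on how many of the 6 tests shared the smallest p.

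*NFE2L2* itself was at 67.4, 66.0, 64.6 and 60.6 CPM in normoxia and at 45.6, 53.4, 41.8 and 47.0 CPM in hypoxia. The groups did not overlap, and the log2 fold change of -0.43 (SE 0.07, edgeR adjusted p = 0.00190) stayed under the fold limit. It was -0.51, and called, without WT hypoxia replicate 2, the highest of the hypoxia libraries for this gene. *KEAP1* was at 119.8, 126, 124 and 118 CPM in normoxia and at 118, 114, 123 and 127 CPM in hypoxia. These values overlapped, and the log2 fold change was 0.01 with a 95% interval of -0.09 to 0.11. The log2 ratio of *NFE2L2* to *KEAP1* counts was -0.92 ± 0.06 in normoxia and -1.36 ± 0.19 in hypoxia (SD, n = 4), lower by 0.45 with no overlap (difference -0.45, exact permutation p = 0.0286, adjusted 0.0571).

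*TXNRD1*, the cytosolic thioredoxin reductase, was at 386, 355, 361 and 359 CPM in normoxia and at 281, 280.0, 275 and 273 CPM in hypoxia. The hypoxia libraries lay within a narrow band below all normoxia libraries, with a log2 fold change of -0.37 (SE 0.05, edgeR adjusted p = 4.3e-04). *HMOX1*, the inducible heme oxygenase, ranged from 9.26 to 10.6 CPM in normoxia and from 7.65 to 8.89 CPM in hypoxia. Its libraries did not overlap, but the log2 fold change of -0.22 (SE 0.09) did not pass the adjusted test in edgeR (adjusted p = 0.0929), and over the alternatives its adjusted p lay between 0.0395 (DESeq2) and 0.237. *SRXN1* was between 95.7 and 102 CPM in normoxia and between 87.4 and 93.5 CPM in hypoxia, also without overlap, with a log2 fold change of -0.10 (SE 0.05, edgeR adjusted p = 0.152). Without WT hypoxia replicate 2, the adjusted p was 0.0484 for *HMOX1* and 0.0315 for *SRXN1*. *OSGIN1* was between 13.1 and 15.9 CPM in normoxia and between 13.1 and 15.2 CPM in hypoxia, and its log2 fold change of -0.05 had a 95% interval of -0.24 to 0.13. For each gene whose groups did not overlap, log2 CPM compared by exact permutation (two-sided) gave p = 0.0286, or 0.0429 adjusted over 27 tests. This adjusted value depended on how many of the 27 tests shared the smallest p. For *HMOX1* and *SRXN1*, passing it therefore adds nothing to the lack of overlap, and the edgeR fit across all genes did not pass them.

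To see whether loss of *CCAR2* affected the same genes, KO cells were compared with WT cells, both in normoxia. The genes that fell in hypoxia, *NFE2L2*, *GCLC*, *GCLM*, *NQO1* and *TXNRD1*, were the 5 that rose in KO cells at an adjusted p under 0.05. The rise of *NFE2L2* was near the threshold and did not pass in limma-voom (adjusted p = 0.0527). No gene of the 9 was lower, and 0 reached the fold limit, although *GCLC*, *NQO1* and *GCLM* lay just under it. The same count of 5 held at an unadjusted p under 0.05 in edgeR, and DESeq2 and limma-voom likewise called 0. Of 21410 genes tested, 6.73% were called higher and 2.94% lower, and by the adjusted p alone 14.9% were higher and 15.4% lower. The median log2 fold change was 0.18 over the 9 genes and 0.01 over all genes. The comparison shares its WT normoxia libraries with the hypoxia comparison, so the opposite signs are not independent of each other.

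*GCLC* was at 35.9, 32.2, 37.0 and 34.7 CPM in the KO libraries, all above the 24.1 to 27.4 CPM of WT normoxia. The log2 fold change was 0.48 (SE 0.05, edgeR adjusted p = 3.7e-05). It was 0.51, and called, without WT normoxia replicate 1 or without KO replicate 2, and 0.50 with upper-quartile factors. *GCLM* was at 115, 94.9, 92.8 and 101 CPM, again above all WT normoxia libraries, with a log2 fold change of 0.44 (SE 0.07, edgeR adjusted p = 2.8e-04). The log2 ratio of *GCLC* to *GCLM* overlapped between KO cells and WT normoxia, at -1.53 ± 0.15 against -1.57 ± 0.03 (SD, n = 4, difference 0.04, exact permutation p = 0.714). Without KO replicate 3 this difference was -0.02. Between KO cells and hypoxia the ratio differed by -0.39 with overlapping libraries (exact permutation p = 0.0571, adjusted 0.0686).

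*NQO1* was at 310.2, 281, 273 and 277 CPM in KO cells, with no overlap with WT normoxia and a log2 fold change of 0.47 (SE 0.05, edgeR adjusted p = 2.9e-05). *TXNRD1* was at 446, 397, 402 and 407 CPM, with a log2 fold change of 0.22 (SE 0.04, edgeR adjusted p = 0.00271). Each of its KO libraries was above each WT normoxia library, by a smaller factor than for *NQO1*. In these genes KO replicate 1 was the highest of the KO libraries.

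*NFE2L2* was at 80.9, 69.9, 67.1 and 66.1 CPM in KO cells, and its lower libraries overlapped those of WT normoxia. Its log2 fold change of 0.18 (SE 0.06) was near the threshold, with an edgeR adjusted p of 0.0440. The adjusted p rose above 0.05 without WT normoxia replicates 2, 3 or 4 (0.0800, 0.105 and 0.123) and without KO replicates 1 or 2 (0.116 and 0.0804), and it was 0.113 with no filter on low counts. In limma-voom it was 0.0527, and exact permutation of log2 CPM gave p = 0.114, or 0.162 adjusted over 27 tests. *KEAP1* was at 121, 117, 119.6 and 113 CPM, with a log2 fold change of -0.01 and a 95% interval of -0.10 to 0.07. The log2 ratio of *NFE2L2* to *KEAP1* was -0.73 ± 0.11 in KO cells against -0.92 ± 0.06 (SD, n = 4), with 0.19 between the means and overlapping libraries (exact permutation p = 0.0571, adjusted 0.0686).

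*HMOX1* (9.65 to 10.9 CPM), *SRXN1* (94.1 to 98.8 CPM) and *OSGIN1* (13.5 to 14.5 CPM) overlapped WT normoxia in KO cells. Their log2 fold changes were 0.08 (95% interval -0.08 to 0.24), 0.03 (-0.06 to 0.11) and -0.03 (-0.19 to 0.12). The mean of *SRXN1* on the CPM scale over 12 libraries was 97.2 in KO cells and 98.1 in WT normoxia, so the sign of its difference depended on the scaling. Markers of other cells moved with the KO group: the summed level of *PTPRC*, *PECAM1*, *CD3E*, *COL1A1* and *PDGFRB* was 25.7 to 28.96 CPM in KO libraries, 16.7 to 19.3 in WT normoxia and 16.7 to 21.3 in hypoxia, and 3 of the 4 tested (*PECAM1*, *COL1A1* and *PDGFRB*) were called higher in KO cells. The defining blood cell markers were near 0, with *PTPRC* at or below 0.238 CPM and *CD3E* at 0 in the KO and WT normoxia libraries. The part of the other markers in the results was not tested.

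**Figure D1:**
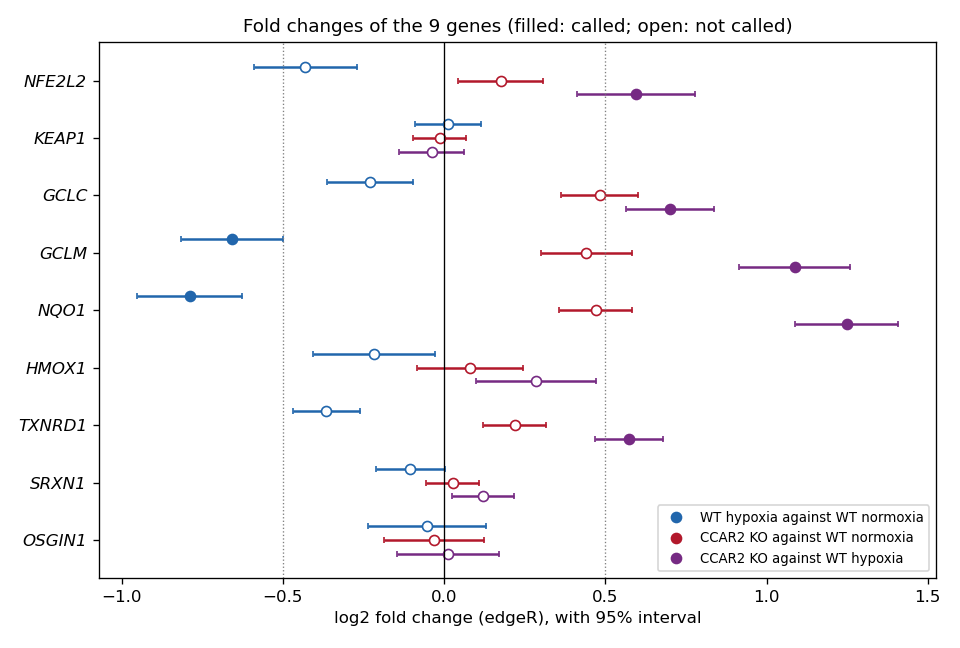
log2 fold change (x axis, edgeR) of each of the 9 genes in the 3 comparisons, with 95% intervals; filled points passed both the adjusted p and the fold limit of 0.5, which is drawn as dotted lines. Blue points for hypoxia lie to the left of red points for KO cells for every gene but KEAP1, by the widest distance for NQO1 and GCLM, and KEAP1 and OSGIN1 stay near 0.

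Hypoxia and KO cells were then compared directly, which tests their difference without the normoxia libraries. Of the 9 genes, 5 were called higher in KO cells (*NFE2L2*, *GCLC*, *GCLM*, *NQO1* and *TXNRD1*), *HMOX1* was higher by the adjusted p alone, and 0 were lower. Of 21158 genes tested, 7.08% were called higher and 7.88% lower, and by the adjusted p alone 17.1% were higher and 17.8% lower. The median log2 fold change was 0.57 over the 9 genes and -0.02 over all genes. The comparison joins a difference in genotype and a difference in oxygen, which cannot be told apart.

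The difference was 1.25 (log2, SE 0.07, edgeR adjusted p = 2.6e-07) for *NQO1* and 1.09 (SE 0.08, edgeR adjusted p = 1.4e-06) for *GCLM*, which were the genes above a log2 fold change of 1. *GCLC* differed by 0.70 (SE 0.06), *NFE2L2* by 0.60 (SE 0.08) and *TXNRD1* by 0.57 (SE 0.05). In each of these 5 genes the lowest KO library was above the highest hypoxia library. Lack of overlap was not counted over all genes in any comparison, so its share among them is not known. *HMOX1* differed by 0.29 (SE 0.08, edgeR adjusted p = 0.0212), under the fold limit, and its adjusted p was 0.0626, 0.0540 or 0.0748 without WT hypoxia replicate 3, WT hypoxia replicate 4 or KO replicate 4. *SRXN1* differed by 0.12 (SE 0.04, edgeR adjusted p = 0.0548) with no overlap, and its adjusted p was 0.0295 in DESeq2 and 0.00749 without WT hypoxia replicate 2. *KEAP1* and *OSGIN1* differed by -0.04 (95% interval -0.14 to 0.06) and 0.01 (-0.15 to 0.17). The sum of the 9 genes, which *TXNRD1* and *NQO1* dominate, ranged from 732 to 774 CPM in hypoxia, from 949.7 to 1014 in WT normoxia and from 1109.9 to 1233 in KO cells.

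As a description of likeness, log2 CPM was correlated over the 12 libraries, whose group means and scaling all genes share. Among the 9 genes, *GCLM* and *TXNRD1* were the most alike (Pearson r = 0.990), followed by *GCLM* and *NQO1* (0.980) and *NQO1* and *TXNRD1* (0.975), and the lowest value was -0.290 for *KEAP1* and *HMOX1*. Among 13682 genes, the most like *TXNRD1* were *TOP1* (0.995), *SLC7A11* (0.994) and *GCLM*. Those most like *GCLM* were *CAMK2D* (0.996), *ATP2B1* (0.993) and *TXNRD1*. *CTNNB1*, *TES* and *DNAJB11* were nearest to *NQO1* (0.991, 0.991 and 0.987), *CYP1B1*, *TNFRSF10B* and *PFKFB2* to *GCLC* (0.986, 0.985 and 0.984), and *EVI2A*, *B3GALNT1* and *MAP2K4* to *NFE2L2* (0.983, 0.981 and 0.978). *KEAP1* and *OSGIN1* had no gene as near, with highest values of 0.862 (*ZNF576*) and 0.879 (*AP2S1*), and those of *HMOX1* and *SRXN1* were 0.958 (*PDE7A*) and 0.966 (*PDP1*).

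The other genes of the pathway were described through 7 lists. In hypoxia, 5.83% of all genes were called higher and 1.43% lower, and 11.6% and 12% by the adjusted p alone. For KO cells against normoxia these shares were 6.73% and 2.94%, and 14.9% and 15.4%. Against hypoxia they were 7.08% and 7.88%, and 17.1% and 17.8%. Counts in the lists are to be read beside these shares and were not tested against them. Of the 19 regulators and partners of NRF2, 1 was called lower and 0 higher in hypoxia. This was *SQSTM1*, which encodes p62, a receptor for autophagy that binds KEAP1. It was at 196, 215, 212 and 209 CPM in WT normoxia, 129.8, 147, 137 and 139 CPM in hypoxia and 279.7, 274, 285 and 289 CPM in KO cells, 3 levels without overlap. Its log2 fold change was -0.56 (SE 0.06, edgeR adjusted p = 9.1e-05) in hypoxia, 0.48 (SE 0.04, 3.9e-06) in KO cells, just under the fold limit, and 1.03 (SE 0.05, 6.1e-08) between KO cells and hypoxia. In KO cells 1 regulator was called higher, *NFE2L3* (0.60, SE 0.05), a relative of NRF2, and 1 lower, *BACH2* (-0.67, SE 0.16), a repressor that shares small MAF partners. The list's median log2 fold change was -0.13 in hypoxia and -0.00 in KO cells. By the adjusted p alone, 1 regulator was higher and 6 lower in hypoxia, and 6 were higher and 2 lower in KO cells.

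Of the 29 glutathione genes, 1 was called higher and 1 lower in hypoxia. The gene called lower was *SLC7A11*, the cystine transporter that supplies cysteine for glutathione, at 111, 89.0, 92.0 and 88.5 CPM in WT normoxia and 55.6, 50.9, 55.2 and 51.7 CPM in hypoxia (log2 fold change -0.80, SE 0.07, edgeR adjusted p = 5.0e-05). In KO cells it was at 144, 123, 115 and 129 CPM and rose by 0.47 (SE 0.08, edgeR adjusted p = 6.3e-04), under the fold limit. *GGT1*, which breaks down extracellular glutathione, was the gene called higher in hypoxia (0.81, SE 0.18) and was also called higher in KO cells (1.38, SE 0.16). In KO cells 3 of the 29 glutathione genes were called higher and 0 lower, beside 6.73% and 2.94% of all genes. The others called were *ABCC3* (1.84, SE 0.07), an efflux transporter of conjugates, and *CHAC1* (0.52, SE 0.08), which degrades glutathione. At an adjusted p under 0.05 alone, 11 were higher and 4 lower in KO cells, and 3 higher and 5 lower in hypoxia. Against hypoxia 6 were called higher in KO cells and 0 lower, beside 7.08% and 7.88% of all genes, among them *GSR* (0.59, SE 0.07), the glutathione reductase. By the adjusted p alone 13 were higher and 4 lower in that comparison. The list's median was 0.02 in hypoxia and 0.09 in KO cells.

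Of the quinone, carbonyl and xenobiotic genes, 0 of 19 tested were called in hypoxia by edgeR, 6 were lower and 0 higher at an adjusted p under 0.05 (10 and 1 at an unadjusted p under 0.05), and the median was -0.13. In KO cells 11 of 20 tested were called higher and 0 lower, against 6.73% of all genes called higher, with a median of 0.54 and positive values in 18 of 20. The aldo-keto reductases *AKR1C1*, *AKR1C2* and *AKR1C3* were among them. *AKR1C3* was at 9.72, 12.5, 10.5 and 10.6 CPM in WT normoxia and 33.5, 32.3, 31.9 and 33.6 CPM in KO cells (log2 fold change 1.64, SE 0.07, edgeR adjusted p = 2.5e-08), and *AKR1C1* was at 1.45 to 1.70 and 6.86 to 8.31 CPM (2.22, SE 0.11). *AKR1C2* had 0.191 to 0.410 CPM in WT normoxia and 1.17 to 1.83 CPM in KO cells (2.29, SE 0.25). *TRIM16L* rose by 1.18 (SE 0.09), from 7.60 to 10.4 CPM in WT normoxia to 18.6 to 21.9 CPM in KO cells. The 3 *AKR1C* genes are alike in sequence, *AKR1C1* and *AKR1C2* most of all, and *TRIM16L* is much like *TRIM16*. How the reads of such genes were split is uncertain. The other genes called were *ALDH3A1*, *AKR1B10*, *ALDH3A2*, *TRIM16*, *PIR*, *EPHX1* and *ALDH2*, of which *ALDH3A1* and *AKR1B10* were below 2 CPM in every library.

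In each of the remaining lists, 0 to 2 genes were called higher and 0 lower in either comparison with normoxia. Beside these counts, 5.83% of all genes were called higher in hypoxia and 6.73% in KO cells. Of 15 thioredoxin and peroxiredoxin genes, *TXNIP*, an inhibitor of thioredoxin, was the gene called in both comparisons with normoxia, higher by 0.68 (SE 0.06) in hypoxia and by 0.68 (SE 0.03) in KO cells, and the list's median was -0.03 and -0.10. By the adjusted p alone, 2 of this list were higher and 0 lower in hypoxia, 1 was higher and 5 lower in KO cells against normoxia, and 1 was higher and 6 lower in KO cells against hypoxia. Of 16 genes of NADPH supply, 2 were called higher in hypoxia, *IDH2* (0.98, SE 0.09), a mitochondrial isocitrate dehydrogenase, and the sparse *ALDH1L1*. *IDH2* was at 6.06, 6.80, 6.62 and 7.72 CPM in WT normoxia, 12.8, 13.0, 13.3 and 13.6 CPM in hypoxia and 7.04, 6.32, 7.26 and 6.47 CPM in KO cells, so that the hypoxia libraries stood above all others. Of 12 heme and iron genes, *ABCB6*, a porphyrin transporter, was called higher in hypoxia (1.09, SE 0.16). In KO cells 0 of this list were called in edgeR, with 3 higher and 1 lower at an adjusted p under 0.05. Of 11 superoxide and peroxide enzymes tested, *NOX5* (0.70, SE 0.21) and the sparse *DUOX2* were called higher in hypoxia, and *NOX5* (2.93, SE 0.20), an NADPH oxidase that makes superoxide, and *SOD3* (1.39, SE 0.07), the extracellular superoxide dismutase, in KO cells. The libraries of *NOX5* overlapped between hypoxia and normoxia. By the adjusted p alone, 5 of these 11 enzymes were higher and 2 lower in hypoxia, and 5 were higher and 1 lower in KO cells against normoxia. For NADPH supply, 4 genes were higher and 6 lower in hypoxia, and 5 were higher and 3 lower in KO cells against normoxia.

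**Figure D2:**
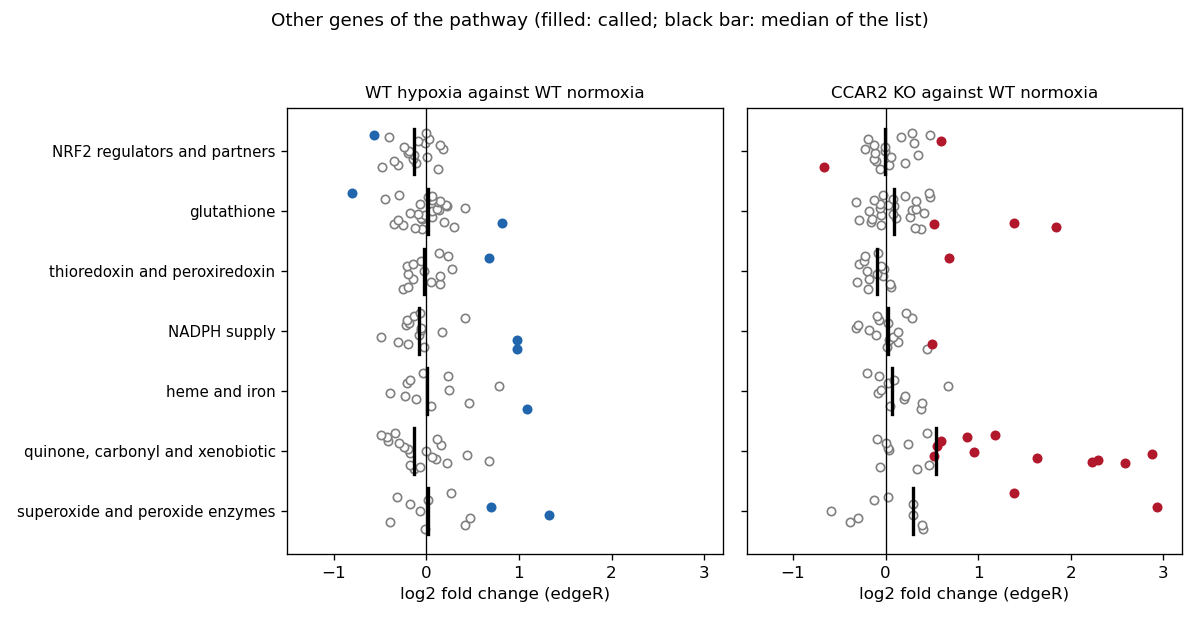
log2 fold change (x axis, edgeR) of the tested genes of each of the 7 lists (rows) in hypoxia (left) and in KO cells (right) against WT normoxia; each point is a gene, filled when called, and the black bar is the list's median. In KO cells 11 of 20 quinone, carbonyl and xenobiotic genes are filled and lie to the right of 0, and in hypoxia none of that list is filled.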

How the data were processed

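The deposited table holds expected counts per gene, whole-number estimates that the authors made from aligned reads and did not scale to library size. The submitters' processing notes name HISAT2, SAMtools and featureCounts, whereas the methods name Hisat2 and StringTie, and the reference build is not given in the sources used here. Every library listed the value 4 for more genes than 3 or 5, so the sums are not numbers of reads and give only relative depth.

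For each comparison, the 8 libraries concerned entered a fit in edgeR 4.0.16 under R 4.3.3 (TMM, filterByExpr, glmQLFit, glmQLFTest, Benjamini-Hochberg over all genes tested). Genes were called where the adjusted p was under 0.05 and the log2 fold change 0.5 or more in size; "rose" and "fell" refer to the adjusted p. CPM are counts per TMM-adjusted library size over the 12 libraries, with 0.5 count added before logarithms, whereas the fits scale 8 libraries. Permutation tests used scipy 1.17.1. The labels and the table give 4 libraries per group, whereas the methods speak of extraction in triplicate and of 2 biological replicates in the test. Which libraries were separate cultures is therefore not settled, and every SD and p-value measures the spread between libraries, which may be partly technical. Replicates differed by 13.9 to 98.4 in chi-square per degree of freedom, and 0 pairs were identical. The highest values were those of WT hypoxia replicate 2 against hypoxia replicates 1, 3 and 4 (62.9, 98.4 and 71.5). The pairs of hypoxia replicates without it were at 18.4 to 36.7.

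The 9 genes and the 7 lists were chosen with earlier results of these data known. Named genes are the 9, up to 4 genes called per list, comparison and direction averaging 100 counts or more, and the 3 genes most correlated with each member. *SQSTM1*, *SLC7A11* and *IDH2* values in comparisons where they were not called, and the genes listed to complete a count, were added after their values were seen. Of 60664 identifiers, 58396 matched GENCODE 29. The script was tested on simulated data.

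The alternatives were DESeq2 1.42.0, limma-voom (limma 3.58.1), RLE and upper-quartile factors, leaving the filter out, requiring 10 counts throughout, calls by adjusted p only, a fold limit of 1 (log2), a joint fit of the 12 libraries, counts divided by 4, a pseudocount of 10 for ratios, a replicate block and each library left out. Leaving out the 3 libraries with the lowest sums was added after seeing the data.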

Additional observations from a re-analysis of the deposited data

How the results depend on the processing

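Of the fold changes of the 9 genes under the alternatives, 471 values kept their direction and side of the call rule (adjusted p and fold limit together), 6 passed it anew and 9 changed sign. This tally leaves out changes in the adjusted p alone. For *NFE2L2* in KO cells against normoxia the adjusted p rose to as much as 0.123 (edgeR), and for *GCLC* in hypoxia to 0.0651 (edgeR). By the adjusted p alone, 5 of the 9 genes were lower in hypoxia and 5 higher in KO cells, and 5127, 6506 and 7390 genes in all were called in hypoxia against normoxia (1582 in the main fit), KO against normoxia (2070) and KO against hypoxia (3165). At a log2 fold change of at least 1, 0 of the 9 were lower in hypoxia and 2 higher in KO cells against hypoxia, and 487, 775 and 1219 genes in all were called. The number of the 9 called higher in KO cells against normoxia was 0 in the main fit, 1 (*GCLC*) with upper-quartile factors and without the 3 libraries of lowest sums (hypoxia replicates 1 and 2 and KO replicate 2), and 0 to 1 with each library left out. Without those 3 libraries, 3 of the 9 were called lower in hypoxia (*NFE2L2* at -0.52 joined) and 5 higher in KO cells against hypoxia. Signs changed only for values near 0. *KEAP1* in hypoxia was at -0.0074 with no filter and -0.0060 to 0.0298 with each library left out. In KO cells it was at 0.0069 with upper-quartile factors and -0.0288 to 0.0032 with each library left out. *OSGIN1* between KO cells and hypoxia was at -0.014 with upper-quartile factors and -0.018 to 0.055 with each library left out, and the *GCLC* to *GCLM* ratio in KO cells against normoxia differed by -0.024 to 0.095. The cause was not tested. Replicate numbers did not pair the libraries (correlations of deviations -0.0174 to 0.0501), and with a replicate block the calls among the 9 were 2 lower in hypoxia, 0 in KO cells and 5 higher against hypoxia, of 1507, 1996 and 3091 genes called in all.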
